A study of Mus musculus with 6 samples.

Results

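RNA-seq of day 3 iGCBs was used to describe 40 genes of glucose uptake, glycolysis, lactate and pyruvate handling, the pentose phosphate pathway and the hypoxia-inducible factor (HIF) system in B cells carrying a conditional *Eif3e* knockout. The gene product, eIF3e, is a subunit of the translation initiation factor eIF3. The genes were chosen by symbol from a written list, made with earlier results of these data known. All 40 were found among the 24499 genes of the count table. iGCBs are germinal center-like B cells made in vitro. Naïve splenic B cells from mice on the C57BL/6J background were grown on 40LB cells, BALB/c 3T3 fibroblasts that carry BAFF and CD40L. The medium held sodium pyruvate and 1 ng/ml of IL-4. The feeder cells had been irradiated at 120 Gy. On day 3, YFP+ cells were sorted from 3 cKO and 3 control cultures. cKO mice were *Eif3e* fl/fl with *Cγ1* Cre, which acts in B cells that transcribe the Ig γ1 constant region, and with the *Rosa26-YFP* LSL reporter of Cre activity. The titles call the other group only control, and its library names hold the letters cgWT, which are not explained. For its work on lymphoid organs the study names control mice that carried *Cγ1* Cre and the *Rosa26-YFP* LSL reporter, and a YFP+ sort needs both, so the groups compared share Cre and reporter. Apart from the letters cgWT, the *Eif3e* alleles of these controls are not given for the 6 libraries, nor are the ages of the mice. The labels number the libraries of each group as repeats 1 to 3 without naming a mouse for each, so p-values measure the spread between these libraries.

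Glycolysis turns glucose into pyruvate in the cytosol. Pyruvate is either reduced to lactate and exported or passed to the mitochondria through the pyruvate dehydrogenase complex, while the pentose phosphate pathway branches off at glucose-6-phosphate to make NADPH and ribose for nucleotides. HIF-1, a dimer of HIF-1α and ARNT, activates many glycolytic genes. With oxygen present, prolyl hydroxylases mark HIF-1α for VHL and the proteasome. Activated and germinal center B cells are known to take up glucose and to use both glycolysis and mitochondrial respiration.

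Libraries held between 39079582 and 45504570 estimated counts, and levels are given as CPM, the counts of a gene scaled by TMM to the same total in every library. Estimated counts were summed per gene by the authors. *Eif3e*, the targeted gene, had 173, 150 and 152 CPM in cKO libraries 1, 2 and 3 and 424, 401 and 392 CPM in control libraries 1, 2 and 3, a log2 fold change of −1.36 (SE 0.07, edgeR adjusted p = 6.71e-07). The counts cover the whole gene, so RNA from any exons outside the floxed segment is included. The source of the *Eif3e* RNA left in cKO was not tested. The B cell markers *Cd79a*, *Ms4a1* and *Pax5* were present at a mean of over 100 CPM in both groups, and of the germinal center genes *Fas* was higher and *Bcl6* was lower in cKO. Of 8 germinal center markers 6 were lower and 1 higher, and they summed to 407 to 420 CPM in cKO and 581 to 675 CPM in control libraries. Of 6 plasma cell markers tested 4 were lower and 2 higher, with sums of 1010 to 1136 CPM in cKO and 1219 to 1278 CPM in control libraries. Among the plasma cell markers, and named after their values were seen, *Jchain*, the joining chain of secreted immunoglobulin, had 9.94, 5.98 and 5.82 CPM in cKO and 138, 125 and 86.2 CPM in control libraries, 6.24% of the control mean (edgeR adjusted p = 1.58e-06). The plasma cell transcription factors *Prdm1* and *Xbp1* were at 45.6% and 46.7% of the control mean (edgeR adjusted p = 0.00161 and 1.94e-06). *Sdc1*, the plasma cell surface marker syndecan-1, was at 302% of the control mean (edgeR adjusted p = 2.06e-05). The part of these marker differences in the results on the 40 genes was not tested. Fibroblast markers summed to 120 to 150 CPM in cKO and 93.8 to 168 CPM in control libraries, with 1 of 15 tested lower and 2 higher. Feeder cells are mouse cells too, so their RNA counts toward the same genes, and its part in the results was not tested. Myeloid markers summed to 4.08 to 6.06 CPM in cKO and 1.22 to 2.45 CPM in control, most of it *Adgre1*. *Cd3e* was at 0 counts in all 6 libraries. In bulk RNA, fewer cells expressing a gene and less RNA per cell cannot be told apart.

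Sequences of Ldha, Pdk1 and Slc16a1 are shown because these genes moved in different directions, as given further on: the first makes lactate and the second restrains pyruvate dehydrogenase, and both fell, while the third exports or imports lactate and rose. Each is the 250 bases before a RefSeq start site on GRCm38.p6, plus strand, at chr7:46845554-46845803 for *Ldha*, chr2:71872974-71873223 for *Pdk1* and chr3:104638414-104638663 for *Slc16a1*. Capitals mark ACGTG or GCGTG on either strand, the core letters to which HIF binds. The palindrome CACGTG, which is also the E-box bound by MYC and related factors, contains ACGTG on both strands and so counts as 2 matches.
Ldha: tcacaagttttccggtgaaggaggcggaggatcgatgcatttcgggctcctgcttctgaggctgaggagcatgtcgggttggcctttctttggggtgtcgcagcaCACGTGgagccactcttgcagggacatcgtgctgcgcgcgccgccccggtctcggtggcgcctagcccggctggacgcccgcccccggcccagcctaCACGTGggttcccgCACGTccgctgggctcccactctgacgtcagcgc
Pdk1: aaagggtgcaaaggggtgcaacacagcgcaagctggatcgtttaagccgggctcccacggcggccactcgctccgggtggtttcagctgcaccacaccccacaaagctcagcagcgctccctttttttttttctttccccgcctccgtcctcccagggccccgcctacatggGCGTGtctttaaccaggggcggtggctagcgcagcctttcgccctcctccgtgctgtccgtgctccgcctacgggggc
Slc16a1: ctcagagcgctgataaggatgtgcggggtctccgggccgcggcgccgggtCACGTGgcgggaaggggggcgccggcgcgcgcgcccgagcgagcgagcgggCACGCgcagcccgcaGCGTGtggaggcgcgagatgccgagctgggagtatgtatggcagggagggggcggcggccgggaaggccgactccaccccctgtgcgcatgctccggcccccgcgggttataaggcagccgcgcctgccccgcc

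The core letters occur 5 times before *Ldha*, 1 time before *Pdk1* and 4 times before *Slc16a1*. Over windows of 250 bases before to 50 bases after the start, 37 of the 40 genes had an entry, and 33 of them (89.2%) had at least 1 match in at least 1 window. *Slc2a3*, *Epas1* and *Bhlhe40* had no window. The same letters were found for 67.0% of 10100 genes tested for expression and for 46.7% of all 27025 genes with a window. Among the glycolysis, pentose phosphate and HIF genes that were lower in cKO, 20 of 24 had a match, and among those that were not lower, 13 of 13 had one. Of the known HIF targets outside glycolysis described at the end, 21 of the 22 with a window (95.5%) had a match. None of these shares was tested against another. *Gpi1*, *Tpi1*, *Vhl* and *Hif1an*, which were all lower in cKO, had no match in their windows. CACGTG was found for 6 of 37 genes (16.2%) and for 11.7% of genes tested. A match describes letters in a window and is not a binding site.

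Compared with control iGCBs, most of the 40 genes were lower in cKO iGCBs. By edgeR's quasi-likelihood test with Benjamini-Hochberg adjustment over 13296 genes, 25 were lower and 4 were higher at an adjusted p under 0.05, and 11 did not pass. Of all genes tested, 24.5% were lower and 24.1% were higher. The list was made with earlier results of these data known, so the shares beside it are no independent test. At a fold change over 1.5 as well, 15 were lower and 3 higher, against 10.6% and 10.4% of all genes. Leaving out 1 library at a time gave 11 to 20 lower and 1 to 3 higher, with 1 higher without cKO library 2, where *Hk2* was at 0.58 on the log2 scale and *Ldhb* lost its call, and 2 higher without cKO library 3 or any 1 control library. In 26 of the 40 genes every cKO library was below every control library and in 4 every cKO library was above, against 29.5% and 29.2% of all genes. The median log2 fold change was −0.45 over the 40 genes and −0.00 over all genes tested.

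**Figure D1:**
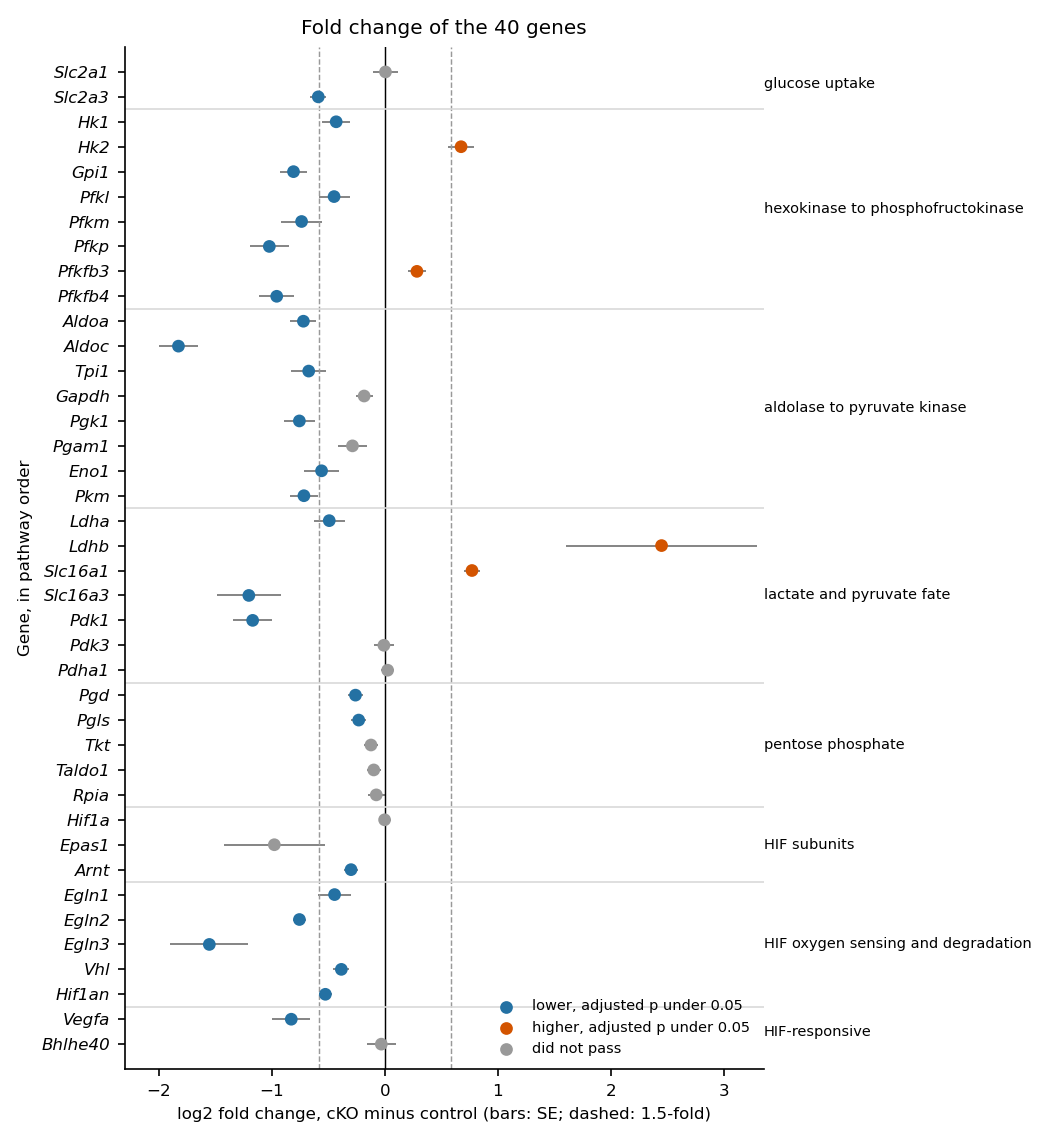
Log2 fold change of the 40 genes, cKO minus control, from edgeR, in pathway order from glucose uptake at the top to HIF-responsive genes at the bottom. Bars are standard errors and dashed lines mark 1.5-fold. The points of 25 genes that were lower lie left of 0, the largest at −1.82 for *Aldoc*, and 4 that were higher lie right of it.

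Together the 40 genes made up 1.59%, 1.37% and 1.09% of the counts in cKO libraries 1, 2 and 3 and 2.09%, 1.92% and 2.00% in control libraries 1, 2 and 3. Per kilobase of transcript, the highest levels in control iGCBs were those of *Aldoa* (1918 CPM per kb), *Pkm* (1684 CPM per kb), *Ldha* (1213 CPM per kb) and *Pgk1* (1116 CPM per kb). *Ldhb* (0.119 CPM per kb), *Epas1* (0.254 CPM per kb) and *Pfkfb4* (2.44 CPM per kb) had the lowest. In cKO iGCBs *Aldoa* and *Pkm* were still the top pair, at 1165 and 1026 CPM per kb.

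**Figure D2:**
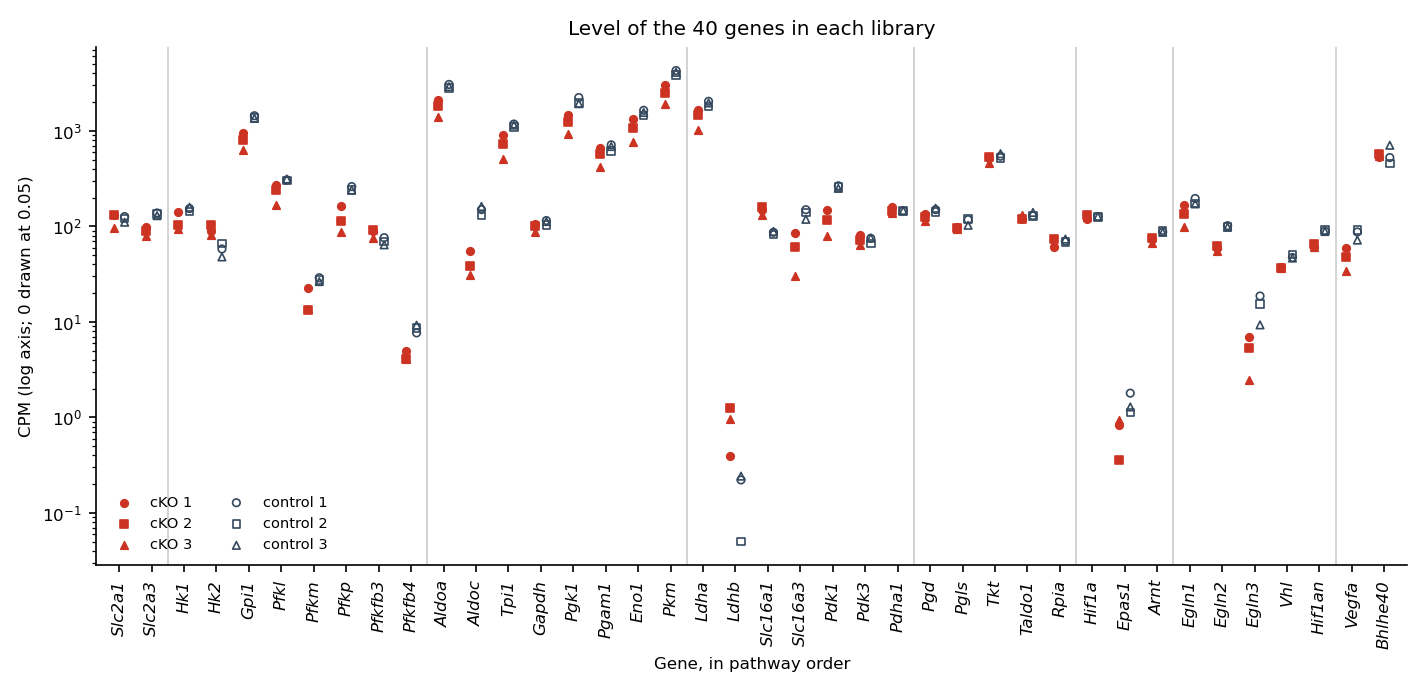
Level of each of the 40 genes in the 6 libraries in CPM on a log axis, cKO filled and control open, with 1 marker shape per library number and grey lines between groups of genes. A count of 0 is drawn at 0.05 CPM. *Ldhb* and *Epas1* have the lowest levels, at 1.79 CPM or less in every library, and the highest is 4271 CPM for *Pkm* in control library 1.

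The 3 cKO libraries did not lie at the same distance from the controls. cKO library 3 had the lowest level of the cKO libraries in 31 of the 39 genes with at least 1 CPM in the controls (79.5%), where it was the lowest for 35.9% of all genes tested. The median gene of the 40 was at −0.23, −0.42 and −0.67 (log2 of the level over the control mean) in cKO libraries 1, 2 and 3. For the genes from hexokinase to pyruvate kinase with *Ldha*, the highest cKO library was a median of 1.55 times the lowest, against 1.12 times in control libraries. Over 10667 genes tested with at least 1 CPM in every library, this ratio was 1.14 in cKO and 1.14 in control libraries. Across all genes the correlation of log2 levels between libraries of a group was 0.977 to 0.982, so cKO library 3 did not stand apart as a whole. Without it the median log2 fold change over the 40 genes was −0.32, and 27 of the 29 calls were kept, *Hk1* and *Ldhb* being lost. Without cKO library 1 the median was −0.61 and 28 calls were kept.

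**Figure D3:**
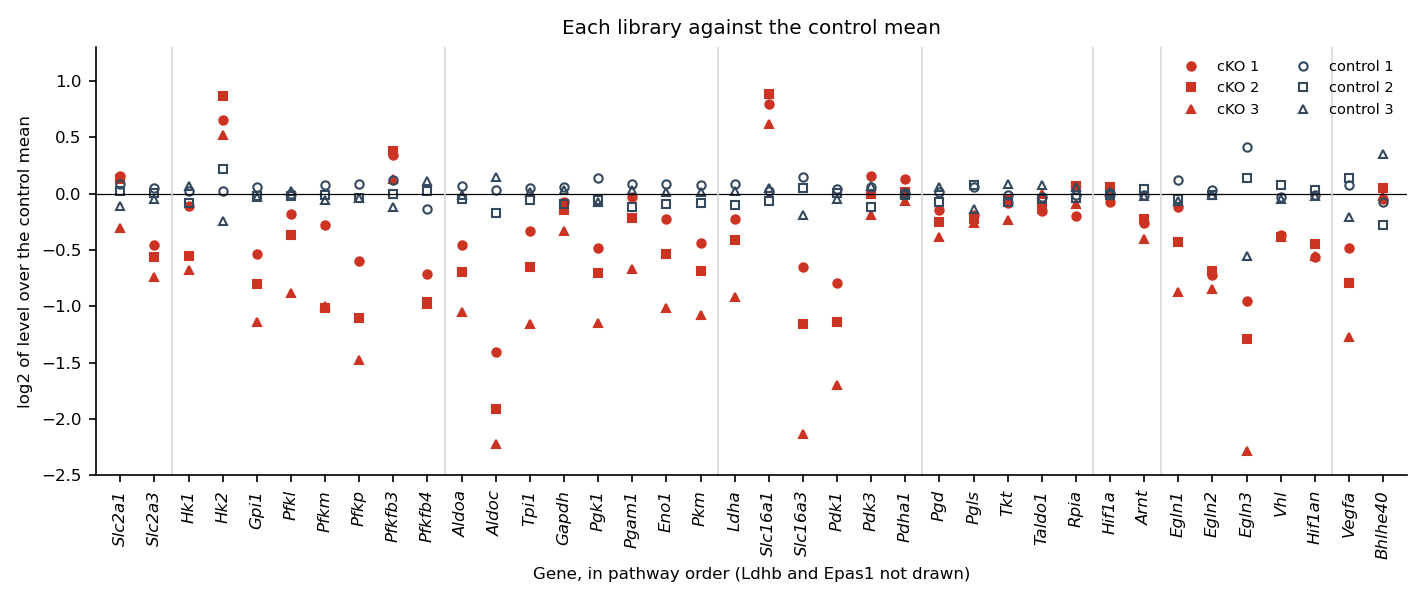
Log2 of each library's level over the mean of the control libraries for 38 of the genes in pathway order, with cKO filled and control open. In most genes of glycolysis cKO library 3 is the lowest point, while the pentose phosphate genes and *Hif1a* lie nearer to 0 in all libraries. *Ldhb* and *Epas1*, the genes with the lowest levels, are not drawn.

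Mice of both sexes contributed. *Xist* was expressed in cKO library 2 and control libraries 1 and 2, and was near 0 in the rest. All 29 called genes had the same direction within the libraries that expressed *Xist* (1 cKO and 2 control) and within those that did not (2 cKO and 1 control), with medians over the 40 genes of −0.44 and −0.49. These subsets are too small for a test.

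Of the glucose carriers, the high-affinity carrier GLUT3 fell and GLUT1 did not pass the test. *Slc2a3*, which encodes GLUT3, had 97.2, 90.2 and 79.9 CPM in cKO and 138, 134 and 129 CPM in control libraries. The groups did not overlap, and the log2 fold change was −0.59 (SE 0.07, edgeR adjusted p = 0.000101). *Slc2a1*, encoding GLUT1, had 133, 130 and 96.2 CPM in cKO and 126, 121 and 110 CPM in control libraries (log2 fold change 0.01, SE 0.11, edgeR adjusted p = 0.969). Here cKO library 3 was the lowest of all 6 and the other cKO libraries were the highest.

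The first steps of glycolysis were divided, with 6 of 8 genes lower and 2 higher. Hexokinases trap glucose as glucose-6-phosphate. *Hk2*, the inducible isozyme, had 89.6, 104 and 81.6 CPM in cKO and 58.0, 66.5 and 47.9 CPM in control libraries. Every cKO library was above every control library, and *Hk2* rose by 0.67 on the log2 scale (SE 0.12, edgeR adjusted p = 0.000975). *Hk1*, the broadly expressed isozyme, had 140, 102 and 94.2 CPM in cKO and 153, 142 and 158 CPM in control libraries. It fell by 0.43 (SE 0.12, edgeR adjusted p = 0.0161), with cKO library 1 close to control library 2. This call was lost without cKO library 2 (adjusted p = 0.0751), cKO library 3 (adjusted p = 0.0535) or control library 1 (adjusted p = 0.0505), and by DESeq2 (adjusted p = 0.0607). The log2 ratio of *Hk2* to *Hk1* was −0.64, 0.02 and −0.21 in cKO and −1.39, −1.09 and −1.72 in control libraries. Its difference of 1.12 was a 2.18-fold shift toward *Hk2*, with no overlap (two-sided exact permutation p = 0.1, the smallest that 3 against 3 libraries allow, 0.108 adjusted over 13 pairs of isozymes).

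*Gpi1*, glucose-6-phosphate isomerase, had 951, 793 and 629 CPM in cKO and 1437, 1365 and 1351 CPM in control libraries, and fell by 0.81 (SE 0.12, edgeR adjusted p = 0.000275). Phosphofructokinase, the committed step, has a liver, a muscle and a platelet isozyme, and all of them fell. *Pfkp*, the platelet isozyme, changed most, with 162, 114 and 88.1 CPM in cKO and 261, 240 and 240 CPM in control libraries (log2 fold change −1.02, SE 0.17, edgeR adjusted p = 0.0007). *Pfkm*, the muscle isozyme, had 13.4 to 22.7 CPM in cKO and 26.4 to 29.0 CPM in control libraries (−0.74, SE 0.18, edgeR adjusted p = 0.00731). *Pfkl*, the liver isozyme and the most abundant per kilobase, had 272, 238 and 167 CPM in cKO and 306, 303 and 313 CPM in control libraries. Its log2 fold change was −0.45 (SE 0.14, edgeR adjusted p = 0.0209), and −0.27 without cKO library 3. The *Pfkl* call was lost without control library 1 (adjusted p = 0.0519) and by DESeq2 (adjusted p = 0.0636). The mix of isozymes shifted away from *Pfkp*. The log2 ratio of *Pfkp* to *Pfkl* was −0.74, −1.05 and −0.92 in cKO and −0.23, −0.34 and −0.38 in control libraries, and the groups did not overlap (exact permutation p = 0.1, adjusted p = 0.108).

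The bifunctional enzymes that set fructose-2,6-bisphosphate, the activator of phosphofructokinase, moved in opposite directions. *Pfkfb3*, whose product has mostly kinase activity, had 88.7, 90.6 and 76.4 CPM in cKO and 76.1, 69.8 and 64.0 CPM in control libraries. It rose by 0.28 (SE 0.08, edgeR adjusted p = 0.016), with cKO library 3 just above control library 1. The *Pfkfb3* call was lost without cKO library 1 (adjusted p = 0.0593), cKO library 2 (adjusted p = 0.0777) or control library 2 (adjusted p = 0.0501). *Pfkfb4* was expressed at 4.98, 4.11 and 4.05 CPM in cKO and 7.67, 8.62 and 9.23 CPM in control libraries and fell by 0.96 (SE 0.15, edgeR adjusted p = 0.000563). The ratio of *Pfkfb3* to *Pfkfb4* was 2.25-fold higher in cKO, with no overlap (exact permutation p = 0.1, adjusted p = 0.108).

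From aldolase to pyruvate kinase, 6 of 8 genes fell and none rose. The summed level of the 8 genes was 9605, 8069 and 6063 CPM in cKO and 13349, 11992 and 12579 CPM in control libraries. *Aldoc*, the brain-type aldolase that is a minor isozyme here, fell most of all 40 genes. It had 54.8, 38.5 and 31.0 CPM in cKO and 150, 129 and 162 CPM in control libraries, and its level in cKO was 28.2% of that in control (log2 fold change −1.82, SE 0.17, edgeR adjusted p = 1.98e-05). *Aldoa*, the main aldolase, had 2124, 1800 and 1407 CPM in cKO and 3057, 2822 and 2901 CPM in control libraries (−0.72, SE 0.11, edgeR adjusted p = 0.00053). The log2 ratio of *Aldoa* to *Aldoc* was 5.26, 5.53 and 5.48 in cKO and 4.35, 4.44 and 4.16 in control libraries, without overlap (exact permutation p = 0.1, adjusted p = 0.108).

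Of the abundant enzymes of the lower pathway, *Pgk1*, *Tpi1* and *Eno1* fell by 0.56 to 0.76 on the log2 scale. *Pgam1*, given below, did not pass. *Pgk1*, phosphoglycerate kinase, which makes the first ATP, had 1453, 1249 and 916 CPM in cKO and 2229, 1956 and 1923 CPM in control libraries (log2 fold change −0.76, SE 0.13, edgeR adjusted p = 0.00104). *Tpi1*, triosephosphate isomerase, had 906, 726 and 511 CPM in cKO and 1177, 1093 and 1146 CPM in control libraries (−0.67, SE 0.16, edgeR adjusted p = 0.00513). In both genes all cKO libraries were below all control libraries and cKO library 3 was the lowest. *Eno1*, enolase 1, had 1323, 1065 and 765 CPM in cKO and 1638, 1449 and 1557 CPM in control libraries (−0.56, SE 0.15, edgeR adjusted p = 0.0115), and −0.37 without cKO library 3. *Eno1b*, a copy of *Eno1* with its own row, takes reads that counting could split, and the sum of both was 1910, 1606 and 1094 CPM in cKO and 2416, 2138 and 2294 CPM in control libraries. The sum therefore did not overlap between groups either.

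*Gapdh* and *Pgam1* did not pass the test. *Gapdh*, glyceraldehyde-3-phosphate dehydrogenase, had 105, 99.7 and 87.3 CPM in cKO and 115, 104 and 112 CPM in control libraries, a log2 fold change of −0.18 (SE 0.07, edgeR adjusted p = 0.0652). Its level per kilobase in control was 77.7 CPM per kb, under that of its neighbours in the pathway, *Tpi1* at 709 and *Pgk1* at 1116 CPM per kb. Pseudogenes of *Gapdh* (2), *Aldoa* (2), *Ldha* (2), *Pgam1* (2), *Pgk1* (3) and *Vhl* (1) carry their parent's name in GENCODE and have no row in the count table, so counts of these genes are uncertain, and the part of such copies in the level of *Gapdh* was not tested. *Pgam1*, phosphoglycerate mutase, had 654, 576 and 422 CPM in cKO and 713, 617 and 685 CPM in control libraries (−0.29, SE 0.13, edgeR adjusted p = 0.0945). Both genes passed without cKO library 1, *Gapdh* at −0.24 (adjusted p = 0.033) and *Pgam1* at −0.43 (adjusted p = 0.0197), and *Gapdh* also without control library 2 (adjusted p = 0.0389). *Pgam1* also passed with the replicate number as a block, as given at the end. Without cKO library 3 the values shrank to −0.11 for *Gapdh* (adjusted p = 0.202) and −0.13 for *Pgam1* (adjusted p = 0.221).

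*Pkm*, pyruvate kinase, makes pyruvate, and its RNA carries 1 of 2 exchanged exons. The M1 form is typical of muscle and brain and the M2 form of dividing cells. Gene totals were 2984, 2515 and 1924 CPM in cKO and 4271, 3822 and 4094 CPM in control libraries (log2 fold change −0.72, SE 0.12, edgeR adjusted p = 0.000834). The exons are shown because only their sequence tells the forms apart. Both lie within the coding part of *Pkm* on the plus strand of GRCm38 (GENCODE M21), at chr9:59675029-59675195 in the M1-type transcript NM_001253883 and chr9:59675568-59675734 in the M2-type transcript NM_011099. They are 167 bases each with the same base at 103 positions (61.7%), and capitals mark the positions where they differ.
M1-type exon: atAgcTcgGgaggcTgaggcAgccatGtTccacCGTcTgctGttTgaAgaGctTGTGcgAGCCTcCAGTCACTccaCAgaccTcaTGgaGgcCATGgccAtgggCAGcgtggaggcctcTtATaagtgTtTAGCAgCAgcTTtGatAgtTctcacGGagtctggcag
M2-type exon: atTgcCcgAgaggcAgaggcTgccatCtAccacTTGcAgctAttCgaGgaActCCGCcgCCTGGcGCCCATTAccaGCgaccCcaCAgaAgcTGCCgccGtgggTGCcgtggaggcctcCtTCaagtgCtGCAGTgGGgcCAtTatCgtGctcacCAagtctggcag

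By the estimated transcript counts, the fall of *Pkm* lay in the M2-type transcript. NM_011099 was estimated at 2808, 2357 and 1770 CPM in cKO and 4107, 3663 and 3923 CPM in control libraries. NM_001253883 was estimated at 176, 157 and 154 CPM in cKO and 163, 158 and 170 CPM in control libraries, and the groups overlapped (exact permutation p = 0.9). The M1-type share of *Pkm* counts was 5.89%, 6.25% and 7.99% in cKO and 3.81%, 4.12% and 4.15% in control libraries, so it was higher in every cKO library. Transcript use of *Pkm* differed at an adjusted p of 0.0378 by edgeR's diffSpliceDGE over 2990 genes with more than 1 transcript, of which 3.28% passed. Of the 13 of the 40 genes in this test, *Pkm* was the only one to pass. The test of the single transcripts did not pass (adjusted p = 1.00), and the *Pkm* call was lost without any 1 of cKO library 2, cKO library 3 and the 3 control libraries, each of which left 0 of the 40 genes called. It remained without cKO library 1 and was lost when the replicate number was added to the model as a block.

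**Figure D4:**
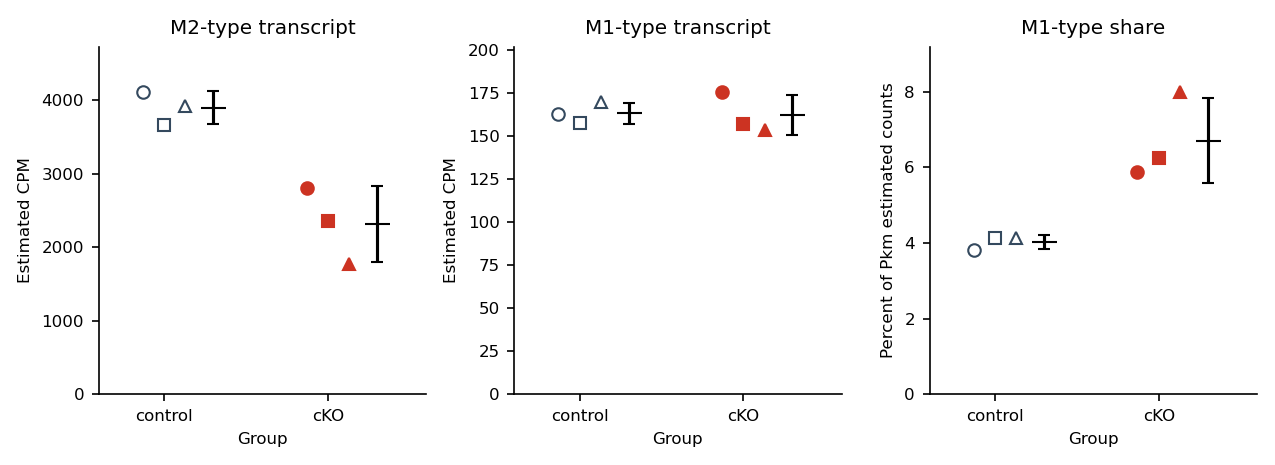
Estimated level of the M2-type and M1-type transcripts of *Pkm* in CPM and the M1-type share in percent, by group, with 1 point per library and the mean ± SD (n = 3) beside the points. The M2-type level is lower in all cKO libraries, the M1-type level overlaps, and the share is 5.89% or more in cKO and 4.15% or less in control.

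In the handling of lactate and pyruvate, 3 of 7 genes fell, 2 rose and 2 did not pass. *Ldha*, the main lactate dehydrogenase, had 1644, 1450 and 1020 CPM in cKO and 2035, 1792 and 1956 CPM in control libraries. It fell by 0.49 (SE 0.14, edgeR adjusted p = 0.013), and by 0.32 without cKO library 3. *Ldhb*, the heart-type subunit, was expressed at a low level, with 18, 56 and 41 counts in cKO and 10, 0 and 10 counts in control libraries (log2 fold change 2.45, SE 0.85, edgeR adjusted p = 0.0351). This call was lost without cKO library 2 (adjusted p = 0.137), cKO library 3 (adjusted p = 0.0936), control library 1 (adjusted p = 0.0696) or control library 2 (adjusted p = 0.0598). In all, 8 of 13 alternative settings lost it, among them a replicate block, no filter on low counts and *Xist* as a covariate.

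The monocarboxylate transporters moved apart. *Slc16a1*, encoding MCT1, had 148, 158 and 131 CPM in cKO and 86.6, 81.7 and 88.3 CPM in control libraries, and rose by 0.77 (SE 0.07, edgeR adjusted p = 1.83e-05). *Slc16a3*, encoding MCT4, the lactate exporter of strongly glycolytic cells, had 86.1, 60.5 and 30.4 CPM in cKO and 149, 140 and 118 CPM in control libraries. It fell by 1.20 (SE 0.28, edgeR adjusted p = 0.00516). The groups did not overlap in either gene, and cKO library 3 was the lowest cKO library in both. The log2 ratio of *Slc16a1* to *Slc16a3* was 0.78, 1.38 and 2.09 in cKO and −0.78, −0.77 and −0.42 in control libraries. This 4.22-fold shift was the largest of the 13 isozyme pairs at a pseudocount of 0.5 CPM (exact permutation p = 0.1, adjusted p = 0.108).

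*Pdk1*, a kinase that inhibits pyruvate dehydrogenase, had 148, 116 and 79.2 CPM in cKO and 266, 258 and 250 CPM in control libraries. It fell to 44.5% of the control level (log2 fold change −1.17, SE 0.17, edgeR adjusted p = 0.000314), with a wide gap between the groups. *Pdk3*, a related kinase, had 80.3, 72.1 and 63.3 CPM in cKO and 74.9, 66.5 and 75.5 CPM in control libraries (−0.01, SE 0.09, edgeR adjusted p = 0.954). *Pdha1*, the catalytic subunit that these kinases phosphorylate, had 138 to 159 CPM in cKO and 144 to 146 CPM in control libraries (0.03, SE 0.06, edgeR adjusted p = 0.754). The ratio of *Pdk1* to *Pdk3* in cKO was 0.436 of that in control, without overlap (exact permutation p = 0.1, adjusted p = 0.108). Of the 13 pairs, 12 had no overlap between groups and *Egln1* to *Egln2* overlapped. None passed after adjustment. No share was computed for ratios of other genes, and of single genes 29.5% lay wholly below and 29.2% wholly above in cKO.

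The pentose phosphate genes changed little, with 2 of 5 lower, none higher and none past 1.5-fold. *Pgd*, 6-phosphogluconate dehydrogenase, which makes NADPH, had 134, 125 and 114 CPM in cKO and 149, 141 and 155 CPM in control libraries (log2 fold change −0.26, SE 0.07, edgeR adjusted p = 0.00972). *Pgls*, the lactonase before it, had 99.0, 96.2 and 93.9 CPM in cKO and 118, 119 and 103 CPM in control libraries (−0.23, SE 0.07, edgeR adjusted p = 0.0147). The *Pgls* call was lost without cKO library 2 (adjusted p = 0.0522) or control library 1 (adjusted p = 0.0613), and with *Xist* as a covariate. The genes of the non-oxidative branch, which interconverts sugar phosphates, did not pass. *Tkt*, transketolase, had 462 to 526 CPM in cKO and 519 to 576 CPM in control libraries (−0.12, SE 0.06, edgeR adjusted p = 0.134). *Taldo1*, transaldolase, had 119 to 132 CPM in cKO and 128 to 140 CPM in control libraries (−0.10, SE 0.06, edgeR adjusted p = 0.221). The groups overlapped in both. *Rpia*, ribose-5-phosphate isomerase, had 61.5 to 73.9 CPM in cKO and 68.8 to 73.6 CPM in control libraries (−0.08, SE 0.07, edgeR adjusted p = 0.432). Leaving out 1 library gave −0.17 to −0.066 for *Tkt*, −0.15 to −0.055 for *Taldo1* and −0.15 to −0.014 for *Rpia*, and none passed. *G6pdx*, the entry enzyme of the pathway, had 58.2, 55.3 and 49.1 CPM in cKO and 54.2, 52.1 and 52.3 CPM in control libraries (0.04, SE 0.08, edgeR adjusted p = 0.728).

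*Hif1a*, encoding HIF-1α, had nearly the same level in both groups, while its partner *Arnt* fell. *Hif1a* had 119, 131 and 127 CPM in cKO and 126, 125 and 127 CPM in control libraries, a log2 fold change of −0.00 (SE 0.05, edgeR adjusted p = 0.986). HIF-1α is known to be controlled mainly at the protein level, which these data do not measure. *Arnt*, its partner, had 73.4, 74.9 and 66.3 CPM in cKO and 87.2, 90.2 and 86.6 CPM in control libraries and fell by 0.30 (SE 0.06, edgeR adjusted p = 0.00231). *Epas1*, encoding HIF-2α, was expressed at a low level, with 0.837, 0.356 and 0.943 CPM in cKO and 1.79, 1.12 and 1.29 CPM in control libraries. Its cKO libraries were all below the control libraries, but it did not pass (−0.98, SE 0.45, edgeR adjusted p = 0.0958). Outside the 40 genes, *Hif3a*, encoding HIF-3α and named here after its values were seen, had 1.92, 0.711 and 0.707 CPM in cKO and 4.25, 4.40 and 3.16 CPM in control libraries and fell by 1.82 (SE 0.39, edgeR adjusted p = 0.00313).

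All 5 members of oxygen sensing and HIF-1α degradation fell, whereas *Cul2* and *Tceb2* of the VHL ubiquitin ligase, which are not among the 40 genes, rose. The prolyl hydroxylases PHD2, PHD1 and PHD3 are encoded by *Egln1*, *Egln2* and *Egln3*. *Egln3*, itself a known HIF target, had 6.92, 5.36 and 2.45 CPM in cKO and 18.7, 15.3 and 9.30 CPM in control libraries (log2 fold change −1.55, SE 0.34, edgeR adjusted p = 0.00387). *Egln2* had 60.0, 61.6 and 55.2 CPM in cKO and 102, 98.4 and 98.4 CPM in control libraries. It fell by 0.75 (SE 0.06, edgeR adjusted p = 5.84e-06), and its libraries were tight within each group. *Egln1*, the main oxygen sensor, had 166, 134 and 98.3 CPM in cKO and 196, 174 and 172 CPM in control libraries (−0.44, SE 0.15, edgeR adjusted p = 0.0313). The *Egln1* value was −0.27 without cKO library 3, and its call was lost without cKO library 2 (adjusted p = 0.0832), control library 1 (adjusted p = 0.105) or control library 2 (adjusted p = 0.0551) and by DESeq2 (adjusted p = 0.106). The *Egln1* call was also lost with *Xist* as a covariate.

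*Vhl*, the substrate receptor of the ubiquitin ligase, had 37.3, 36.7 and 36.7 CPM in cKO and 47.2, 50.7 and 46.6 CPM in control libraries (log2 fold change −0.38, SE 0.07, edgeR adjusted p = 0.00134). The other subunits of that ligase were named after their values were seen. *Cul2*, its scaffold, had 79.9, 78.1 and 81.1 CPM in cKO and 53.6, 48.1 and 50.2 CPM in control libraries and rose by 0.65 (SE 0.06, edgeR adjusted p = 1.88e-05). *Tceb2*, encoding elongin B, rose by 0.27 (SE 0.06, edgeR adjusted p = 0.00242). *Tceb1*, encoding elongin C, had a log2 fold change of 0.16 (SE 0.09, edgeR adjusted p = 0.167) and ranged from 0.081 without control library 2 (adjusted p = 0.514) to 0.27 without control library 3 (adjusted p = 0.0107), where it passed, and *Rbx1*, the RING subunit, had one of −0.01 (SE 0.07, edgeR adjusted p = 0.952). *Hif1an*, the asparaginyl hydroxylase FIH that blocks HIF from its coactivators, had 60.4, 65.6 and 60.9 CPM in cKO and 89.1, 91.7 and 88.3 CPM in control libraries. It fell by 0.53 (SE 0.06, edgeR adjusted p = 3.77e-05). In *Egln2*, *Vhl* and *Hif1an* the cKO libraries lay close together, unlike in the glycolytic enzymes. Of the HIF-responsive pair, *Vegfa*, the angiogenic growth factor, had 59.3, 47.6 and 34.0 CPM in cKO and 87.3, 91.1 and 71.8 CPM in control libraries (−0.83, SE 0.17, edgeR adjusted p = 0.0024). *Bhlhe40*, a transcription factor that many signals other than hypoxia induce, had 534, 572 and 543 CPM in cKO and 525, 454 and 706 CPM in control libraries (−0.03, SE 0.13, edgeR adjusted p = 0.866). Control library 3 was the highest for *Bhlhe40* and control library 2 the lowest.

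Of 93 further genes listed for these pathways, 75 were tested, 15 were higher and 27 were lower, with a median log2 fold change of −0.07. Among the lists of further genes, known HIF targets outside glycolysis had the largest share lower, with 19 of 28 tested (67.9%). None was higher, and the median was −0.69. This list too was made with earlier results of these data known, and its share was not tested against the others. In 22 of these 28 genes cKO library 3 was the lowest cKO library. *Ddit4*, an inhibitor of mTORC1, had 43.7, 46.1 and 46.8 CPM in cKO and 121, 125 and 115 CPM in control libraries (−1.40, SE 0.06, edgeR adjusted p = 3.62e-07). *Bhlhe41*, a repressor related to *Bhlhe40*, had 18.4, 16.0 and 18.2 CPM in cKO and 51.8, 40.1 and 47.2 CPM in control libraries (−1.40, SE 0.11, edgeR adjusted p = 6.45e-06). Libraries of these 2 genes were close within cKO, while those of *Ak4*, a mitochondrial adenylate kinase, ran from 27.9 to 9.59 CPM in cKO against 37.4 to 52.8 CPM in control (−1.20, SE 0.30, edgeR adjusted p = 0.00723).

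**Figure D5:**
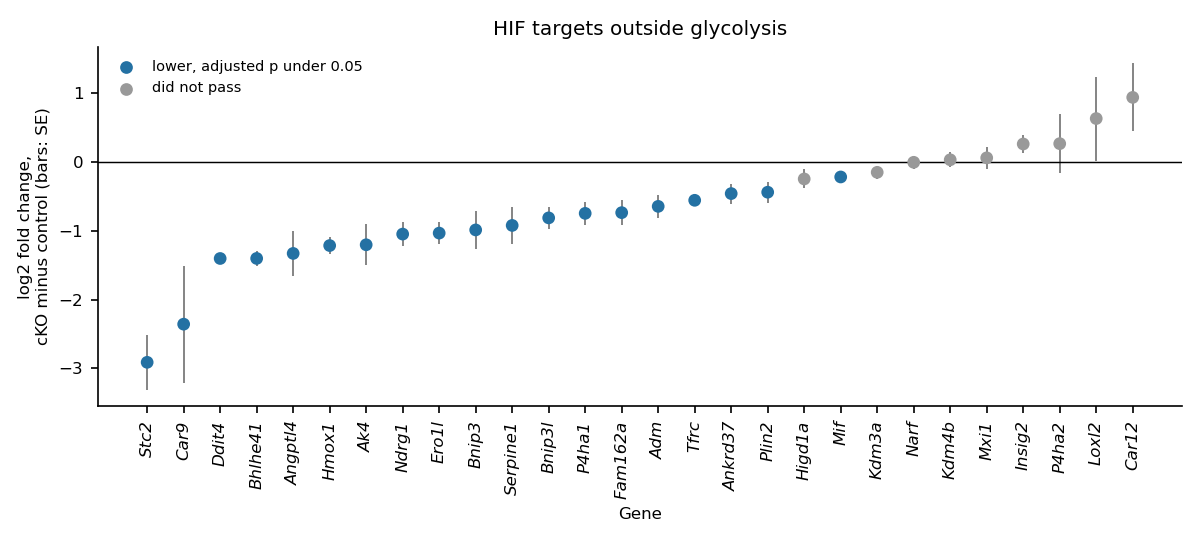
Log2 fold change, cKO minus control, with standard errors from edgeR, for the 28 tested HIF targets outside glycolysis, ordered by value. The 19 genes that were lower are in blue, and those in grey did not pass.

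*Ndrg1*, a stress-response gene, fell by 1.05 (SE 0.18, edgeR adjusted p = 0.000828), and *Ero1l*, an oxidase of disulfide formation, fell by 1.03 (SE 0.16, edgeR adjusted p = 0.000378). *Bnip3*, a mitophagy receptor, had 146, 88.5 and 52.0 CPM in cKO and 219, 175 and 174 CPM in control libraries (−0.99, SE 0.28, edgeR adjusted p = 0.0147). The *Bnip3* call was lost without cKO library 2 (adjusted p = 0.0614) or control library 1 (adjusted p = 0.0562) and by DESeq2 (adjusted p = 0.0534). Among the other 18 tested genes of glucose carriers and glycolysis, 4 were lower (22.2%) and 3 higher (16.7%). Both shares were under those of all genes (24.5% and 24.1%). *Pgm2*, phosphoglucomutase, which links glycogen and glucose-6-phosphate, had 105, 76.7 and 54.9 CPM in cKO and 187, 162 and 184 CPM in control libraries (−1.18, SE 0.18, edgeR adjusted p = 0.000428). *Eno3*, the muscle enolase, rose by 0.94 (SE 0.12, edgeR adjusted p = 0.000132) from 9.25 ± 0.923 to 17.8 ± 1.71 CPM (SD, n = 3 each). Of 12 tested HIF regulators, 6 were higher (50%) and 2 lower (16.7%), against 24.1% and 24.5% of all genes.

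Around pyruvate dehydrogenase, 5 of 12 tested genes were higher (41.7%) and 2 lower (16.7%), against 24.1% and 24.5% of all genes. The lower ones were *Pdp2*, a phosphatase that reactivates the complex (−1.02, SE 0.12, edgeR adjusted p = 8.57e-05), and *Pcx*, pyruvate carboxylase, which makes oxaloacetate (−0.82, SE 0.12, edgeR adjusted p = 0.000267). The 5 higher genes were named after their values were seen. They were the subunits *Pdhb* (0.42), *Pdhx* (0.79) and *Dlat* (0.57), the phosphatase *Pdp1* (0.59) and the pyruvate carrier *Mpc2* (0.36), with edgeR adjusted p of 0.000167, 0.000179, 9.41e-05, 0.0192 and 0.0137. *Pdp1* lost its call without cKO library 2 (adjusted p = 0.0903), control library 1 (adjusted p = 0.0691) or control library 2 (adjusted p = 0.0513), and *Mpc2* without cKO library 3 (adjusted p = 0.0542) or control library 2 (adjusted p = 0.06). *Pdha1* and *Pdk3* of the same step did not pass, as given above, and *Pdk1* fell.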

How the data were processed

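RNA-seq covered YFP+ day 3 iGCBs in 3 cKO and 3 control libraries. The labels' general culture text gives a longer culture than the titles and the RNA-seq methods. The authors trimmed reads, aligned them with HISAT2 to mm10 and quantified them with StringTie, whose prepDE script gave the deposited estimated counts of genes and of RefSeq transcripts, not normalized and already whole. Tool versions and the read-length setting were not given in the sources used here.

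Groups came from the labels. In R 4.3.3 with edgeR 4.0.16, genes kept by filterByExpr (minimum count of 10) were TMM-scaled, and cKO was compared with control by the quasi-likelihood test, without covariates, adjusted by Benjamini-Hochberg, at an adjusted p under 0.05. Fold changes carry standard errors. Transcript use was tested with diffSpliceDGE, and isozyme ratios with a two-sided exact permutation test on log2 ratios of CPM with a pseudocount of 0.5 CPM. Scripts were tested on simulated data. Lengths and positions are from GENCODE M21 (GRCm38) and RefSeq (GRCm38.p6). At these depths 3 counts are 0.0659 to 0.0768 CPM, which covers counting error only.

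The members and lists were chosen with earlier results of these data known. All 40 members were named, with *Eif3e*, *G6pdx* and, of the further genes, the 10 largest changes past both cutoffs (adjusted p under 0.05 and 1.5-fold) with a mean of at least 10 CPM. Replicate numbers were not used as pairs in the main test. Correlations of same-numbered libraries' deviations were 0.01, 0.08 and 0.13, and those of other combinations −0.17 to 0.10. These weak values cannot exclude a pairing. Alternatives were DESeq2 1.42.0 and its size factors, total counts, other filters, a replicate block, *Xist* as a covariate, a test against 1.5-fold, another pseudocount and each library left out.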

Additional observations from a re-analysis of the deposited data

How the results depend on the processing

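Of the 29 called members, 23 kept their call in every alternative other than the test against 1.5-fold, and none changed direction in any of them. That test left 5 members lower and 1 higher, 580 and 584 of all genes, and 9 and 1 of the further pathway genes, since it asks for a larger change by construction. Leaving out 1 library at a time gave 2 to 4 members higher and 21 to 27 lower. DESeq2 kept 26 of 29 calls, losing *Hk1*, *Pfkl* and *Egln1*, and the *Xist* covariate kept 26, losing *Ldhb* (adjusted p = 0.0513), *Pgls* (adjusted p = 0.0627) and *Egln1* (adjusted p = 0.0656). *Ldhb* was also lost with no filter on low counts (adjusted p = 0.0577).

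The replicate block kept 28 of 29 member calls, losing *Ldhb* (adjusted p = 0.0766), with a median log2 fold change of −0.48. *Pgam1* passed under it (−0.31, adjusted p = 0.043). Under the block 0 members were called for transcript use, against 1 without it, and all 13 isozyme pairs differed the same way in each equal-numbered pair. Leaving out 1 library gave 0 to 1 members called for transcript use.

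Members near 0 changed sign. *Slc2a1* was −0.0062 under the block and −0.074 to 0.14 without 1 library. *Pdk3* was 0.0013 by DESeq2 and −0.094 to 0.076 without 1 library. *Hif1a* was 0.0063 with DESeq2 size factors, 0.0018 with total counts, 0.0078 by DESeq2, 0.0051 with at least 10 counts in every sample, 0.018 with the *Xist* covariate and −0.032 to 0.035 without 1 library. Without 1 library *Pdha1* was −0.029 to 0.071, *Bhlhe40* −0.17 to 0.17 and *G6pdx* −0.018 to 0.1. *Rbx1* was 0.002 with DESeq2 size factors, 0.0035 by DESeq2, 0.00067 with at least 10 counts in every sample, 0.012 with the *Xist* covariate and −0.047 to 0.053 without 1 library. None of these passed, and the cause was not tested. The log2 ratio of *Ldha* to *Ldhb* differed by −1.55 between groups and by −2.92 with a pseudocount of 0.05 CPM. Low counts limit *Ldhb* and *Epas1*.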
